A study of Homo sapiens and Mus musculus with 25 samples.

Results

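The genes described here are 100 developmental transcription factor genes outside the HOX clusters, read in K562, an established human line from a chronic myeloid leukaemia often taken as a stand-in for red cell precursors. They were chosen by name alone, as the protein-coding genes on chromosomes 1 to 22 whose symbol has the prefix PAX-, LHX-, SIX-, NKX-, TBX-, SOX-, OTX-, DLX-, IRX-, MSX- or POU- followed by a number, without PAX5. They make up 100 of 19111 genes and fall into 11 families: 18 POU, 18 SOX, 14 NKX, 12 TBX, 8 LHX, 8 PAX, 6 DLX, 6 IRX, 6 SIX-family, 2 MSX and 2 OTX genes. The name rule also takes in POU2AF1, POU2AF2 and POU2AF3, which are named as POU class 2 coactivators and not as POU-domain factors. Histone H3 methylated at lysine 4 was mapped by internally calibrated ChIP-seq, in which barcoded nucleosomes of known modification are added to the chromatin before immunoprecipitation. There was 1 peak list for each of 17 antibodies, 5 against the monomethylated form (H3K4me1), 4 against the dimethylated form (H3K4me2) and 8 against the trimethylated form (H3K4me3). Beside them stood 1 list for H3K27me3 and 3 lists, 1 per degree of H3K4 methylation, that the authors corrected for off-target capture. All lists came from K562 cells with no treatment named, and the 17 antibodies are treated as the replicates of a measurement on 1 cell line, since the labels name no separate cultures.

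H3K4me3 marks the start sites of active genes and is often found with unmethylated CpG-rich DNA, while H3K4me1 flanks active starts and marks enhancers. H3K27me3 is laid down by Polycomb repressive complex 2 and covers many silent developmental regulators. Promoters that carry H3K4me3 and H3K27me3 together are called bivalent and were described at genes such as PAX, LHX, SOX, TBX and DLX in embryonic stem cells. Most of the families above build organs such as brain, eye, heart, limb and pancreas and have no known role in red cells, with exceptions such as SOX6, which acts in erythroid maturation.

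To show what kind of DNA these marks were read on, 5 member promoters are given, 1 or 2 for each combination of marks described below. They run from 250 bases before to 50 bases after the start, 5′ to 3′ on the strand of the gene, from RefSeq on GRCh38.p14, with each CG dinucleotide in capitals. DLX2 (chr2:172102851-172103150, minus strand) and POU2F1 (chr1:167220636-167220935, plus strand) carried H3K4me3 in all 8 antibody lists together with H3K27me3. SOX12 (chr20:325302-325601, plus strand) carried H3K4me3 without H3K27me3, and MSX2 (chr5:174724332-174724631, plus strand) carried H3K27me3 without H3K4me3. POU3F3 (chr2:104853865-104854164, plus strand) carried neither within 1 kb of its start. Its wider surroundings were marked, since the 50 kb either side were 86.2% under H3K27me3 peaks and on average 31.8% under H3K4me1 peaks.
DLX2: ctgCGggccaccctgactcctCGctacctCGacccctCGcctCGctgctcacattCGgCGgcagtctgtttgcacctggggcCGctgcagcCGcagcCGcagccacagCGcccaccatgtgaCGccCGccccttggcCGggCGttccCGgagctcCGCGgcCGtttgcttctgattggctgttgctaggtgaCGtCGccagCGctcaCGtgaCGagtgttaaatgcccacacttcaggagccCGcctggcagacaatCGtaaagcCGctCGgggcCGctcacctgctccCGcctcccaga
POU2F1: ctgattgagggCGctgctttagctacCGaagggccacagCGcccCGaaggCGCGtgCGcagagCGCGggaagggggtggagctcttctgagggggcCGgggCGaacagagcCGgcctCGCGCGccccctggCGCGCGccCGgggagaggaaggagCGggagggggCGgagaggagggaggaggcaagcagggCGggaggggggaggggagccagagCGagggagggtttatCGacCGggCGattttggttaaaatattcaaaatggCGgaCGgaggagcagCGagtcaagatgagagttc
SOX12: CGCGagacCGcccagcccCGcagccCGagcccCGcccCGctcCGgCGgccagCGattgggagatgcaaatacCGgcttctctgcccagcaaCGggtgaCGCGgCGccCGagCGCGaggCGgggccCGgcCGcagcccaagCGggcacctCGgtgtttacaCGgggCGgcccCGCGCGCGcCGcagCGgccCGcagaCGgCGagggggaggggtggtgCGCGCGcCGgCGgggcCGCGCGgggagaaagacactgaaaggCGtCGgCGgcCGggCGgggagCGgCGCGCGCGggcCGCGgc
MSX2: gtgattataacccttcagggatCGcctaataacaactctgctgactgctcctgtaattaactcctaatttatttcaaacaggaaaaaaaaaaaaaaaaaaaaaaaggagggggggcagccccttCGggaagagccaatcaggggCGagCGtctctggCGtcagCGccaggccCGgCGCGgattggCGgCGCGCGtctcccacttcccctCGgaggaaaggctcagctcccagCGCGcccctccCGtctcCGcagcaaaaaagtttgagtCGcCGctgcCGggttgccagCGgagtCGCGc
POU3F3: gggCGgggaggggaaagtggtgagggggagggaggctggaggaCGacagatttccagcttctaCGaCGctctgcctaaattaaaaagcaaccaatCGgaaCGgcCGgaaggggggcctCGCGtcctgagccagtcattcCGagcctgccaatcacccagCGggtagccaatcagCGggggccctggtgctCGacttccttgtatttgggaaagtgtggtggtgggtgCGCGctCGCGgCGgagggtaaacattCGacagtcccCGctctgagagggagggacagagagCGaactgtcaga
The 300-base stretch held 30 CG in DLX2, 29 in POU2F1, 54 in SOX12, 24 in MSX2 and 21 in POU3F3. CG reads the same on both strands. SOX12 had more CG than 99.5% of the 35116 promoters in the RefSeq table. A promoter was matched in that table for 65 of the 100 members, with a median of 21 CG (2 to 54) per 300 bases, against 14 in all promoters of the table. All 65 held at least 1 CG, against 96.0% of all promoters of the table. TATAAA, searched on either strand, was present in 7 of the 65, or 10.8%, against 11.5% of all promoters of the table, and in none of the 5 shown.

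Each promoter was read as a window of 1 kb either side of the start of the canonical transcript, and it held a mark when at least 1 base lay under a peak. Members held H3K4 methylation less often than promoters in general. On average over antibodies, 61.2 ± 7.29% of members held an H3K4me1 peak (SD, n = 5 antibodies), 52.8 ± 13.4% an H3K4me2 peak (n = 4) and 29.9 ± 16.3% an H3K4me3 peak (n = 8). Of all 19111 promoters, 80.3 ± 4.70% held H3K4me1, 77.7 ± 7.55% held H3K4me2 and 56.1 ± 14.1% held H3K4me3. The share of members was below that of all promoters in each of the 17 lists, with a difference of -2.82 points for Active Motif 39635 up to -33.7 points for Thermo Fisher 710796. The gap averaged -19.1 ± 9.29 points for H3K4me1, -24.9 ± 7.94 for H3K4me2 and -26.3 ± 3.82 for H3K4me3 (SD over the same antibodies). No test was run on these shares, because the genes are not replicates.

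The H3K4me3 antibodies differed widely among themselves. EMD Millipore 07-473 had a peak at 53 of the 100 members, Abcam ab8580 at 51, EMD Millipore 05-745R at 34, Abclonal A2357 at 33, Thermo Fisher PA5-40086 at 25, Abcam ab12209 at 22, Diagenode C15410003 at 14 and EpiGentek A-4033-050 at 7. The last 2 were the only H3K4me3 libraries run beside the second input, and they averaged 10.5% of members against 37.99% of all promoters. The 6 lists run beside the first input averaged 36.3 ± 13.0% of members against 62.2% of all promoters, so the gap was -27.5 points in the second batch and -25.8 in the first. By amplification, the gap was -24.9 points in the 5 libraries of 8 cycles and -28.5 in the 3 libraries of 12 cycles.

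**Figure D1:**
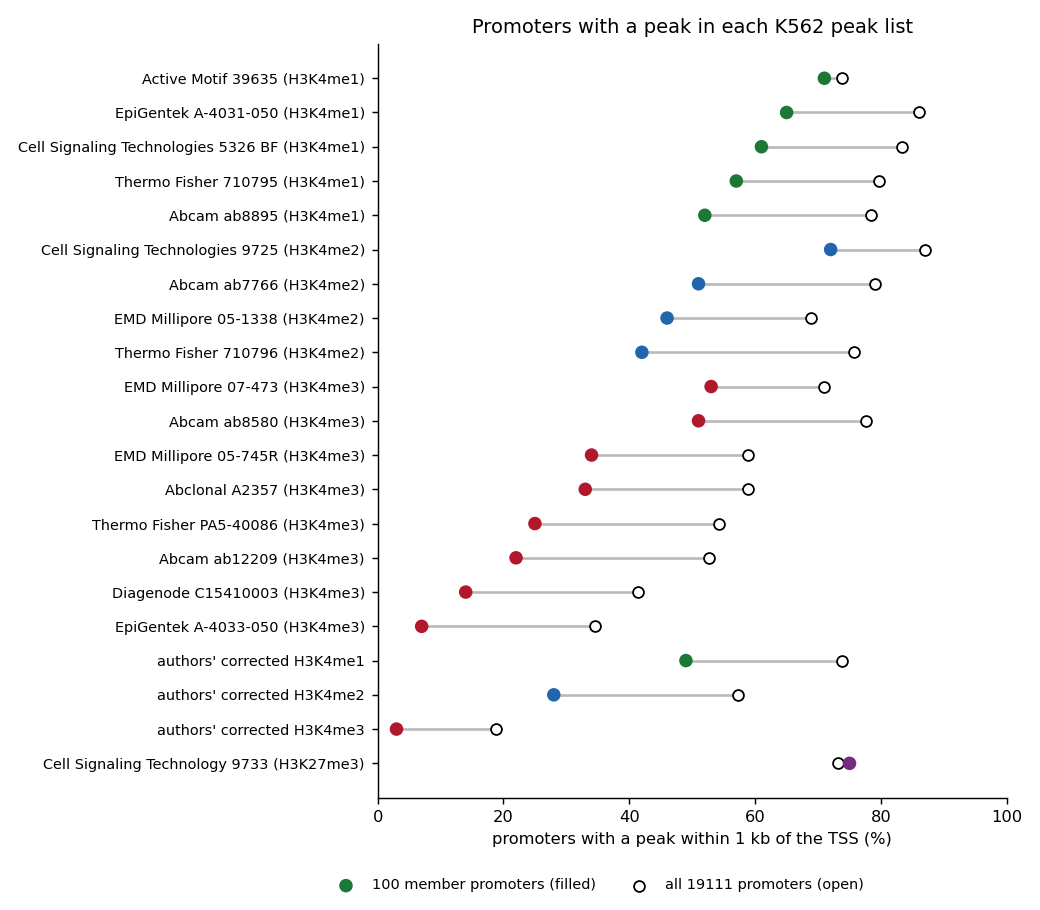
Percent of promoters with a peak within 1 kb of the transcription start site (x axis) in each peak list (y axis); filled points are the 100 members, coloured by target, and open points are all 19111 promoters. Members lie left of all promoters in each of the 17 H3K4 lists and the 3 corrected lists, and right of them for H3K27me3 (75 against 73.2%).

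The depth of the reads behind the lists is unknown, and a window without a peak does not show an unmodified promoter. The lists covered from 18.4 Mb (EpiGentek A-4033-050) to 1592 Mb (Active Motif 39635) of chromosomes 1 to 22. Genes that mark the erythroid state of K562 held H3K4me3 in at least 5 of 8 lists at 16 of 20 promoters, against 2 of 9 myeloid, 2 of 9 lymphoid and 1 of 8 neural markers. The H3K9me3 list covered 2687 Mb and touched 99.0% of all promoters, so it was not read further.

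Around the start site the members lacked much of the usual shape. At the start base itself 23.3 ± 14.2% of members lay under an H3K4me3 peak, against 50.4 ± 12.7% of all promoters (SD, n = 8 antibodies). At the start minus the mean 3 kb up- and downstream, H3K4me3 gained 14.7 ± 11.0 points in members and 39.1 ± 11.9 in all promoters. H3K4me2 gained 8.38 ± 13.6 points in members and 12.0 ± 12.4 in all promoters (n = 4). H3K4me1 dipped by less in members, with -6.80 ± 3.72 points against -21.4 ± 8.93 in all promoters (n = 5). The 24 members with H3K4me3 in at least 5 of 8 lists had 54.2 ± 25.7 points for H3K4me3, 32.8 ± 32.1 for H3K4me2 and -19.6 ± 10.3 for H3K4me1. The 10317 promoters called by the same rule had 69.3 ± 21.4 points for H3K4me3, 16.2 ± 18.3 for H3K4me2 and -40.4 ± 17.3 for H3K4me1. For H3K4me1 the 24 lay nearer to these promoters than all members did, and for H3K4me2 they lay further off, with a wide spread. Their H3K4me3 gain follows in part from the way they were chosen.

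**Figure D2:**
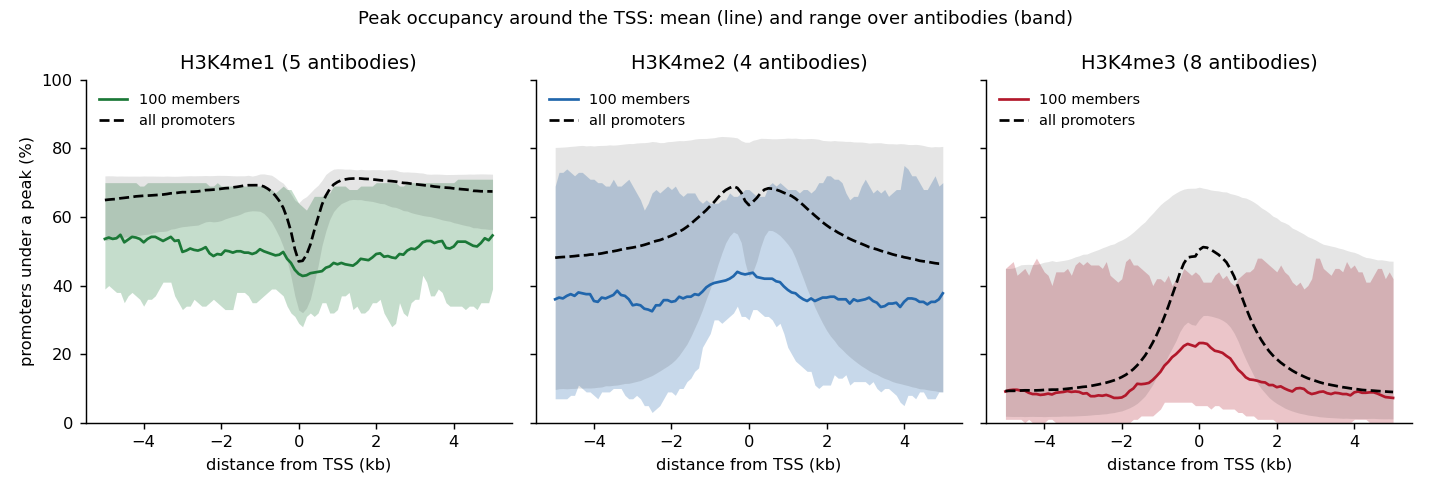
Percent of promoters under a peak (y axis) by distance from the start site in kb (x axis), for H3K4me1, H3K4me2 and H3K4me3; lines are means over antibodies, solid for the 100 members and dashed for all promoters, and bands are the range over antibodies. The H3K4me3 maximum at the start is lower in members (23.3% at the start base, against 50.4% of all promoters), and the H3K4me1 dip is shallower.

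Where members did hold H3K4me3 the peaks were narrower in all 8 lists. The median width of the widest peak at a member was 1228 bases against 1772 at all promoters with Abcam ab12209, and 1738 against 2351.5 with Abclonal A2357. It was 1861 against 2360 with EMD Millipore 05-745R, 2004 against 2887 with EMD Millipore 07-473 and 1046 against 1857 with Thermo Fisher PA5-40086. It was 4236 against 4982 with Abcam ab8580, 1641.5 against 2240 with Diagenode C15410003 and 1880 against 2163 with EpiGentek A-4033-050.

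A promoter was said to carry H3K4me3 when at least 5 of the 8 lists had a peak there. This held for 24 members, or 24%, against 54.0% of all promoters. No H3K4me3 list had a peak at 31 members, against 14.6% of all promoters; 20 members had a peak in 1 list and 16 in 2 lists. A peak in every H3K4me1 list was found at 37 members, against 63.5% of all promoters, and a peak in every H3K4me2 list at 32, against 61.2%. All 17 lists had a peak at 6 members, against 29.2% of all promoters: DLX1, DLX2, POU2F1, POU6F1, TBX1 and TBX6. No list of the 17 had a peak at 12 members, against 6.53% of all promoters.

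The mean shares differed from family to family, and not every family lay below all promoters. Of all promoters, 80.3% held H3K4me1, 77.7% H3K4me2 and 56.1% H3K4me3. DLX, LHX and TBX lay above all promoters for H3K4me1, and the other families below. For H3K4me2 (79.2 ± 21.0%) and H3K4me3 DLX was level with all promoters, and every other family lay below. The DLX genes, homeobox factors of the jaw, limb and forebrain, held H3K4me1 in all 5 lists at all 6 promoters, and 56.3 ± 28.1% of them held H3K4me3 (SD, n = 8). TBX genes, T-box factors of heart and limb, had 85.0 ± 10.9% for H3K4me1 and 42.7 ± 20.1% for H3K4me3. LHX genes, LIM homeobox factors of neurons and limb, had 87.5 ± 8.84% for H3K4me1 but 34.4 ± 23.9% for H3K4me3. The 2 OTX genes had 50% for H3K4me1 in every list and 43.8 ± 17.7% for H3K4me3, and the 2 MSX genes 70.0 ± 27.4% and 37.5 ± 23.1%. At the other end, IRX genes, homeobox factors named after the fly Iroquois complex, had 36.7 ± 39.8% for H3K4me1 and 16.7 ± 12.6% for H3K4me3. The wide H3K4me1 spread of IRX came from Active Motif 39635, which had a peak at 100% of the 6 promoters, and the mean was 20.8% without it. PAX genes, paired-box factors, had 47.5 ± 13.7% for H3K4me1 and 18.8 ± 14.9% for H3K4me3, and NKX genes had 41.4 ± 7.82% and 21.4 ± 17.1%. POU genes had 66.7 ± 7.86% and 29.2 ± 16.2%, SOX genes 52.2 ± 8.43% and 25.0 ± 16.0%, and SIX-family genes 40 ± 14.9% and 29.2 ± 19.4%. The same antibodies read every family, so the SD over antibodies does not measure the spread of a gap between families. Families were not tested against each other.

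**Figure D3:**
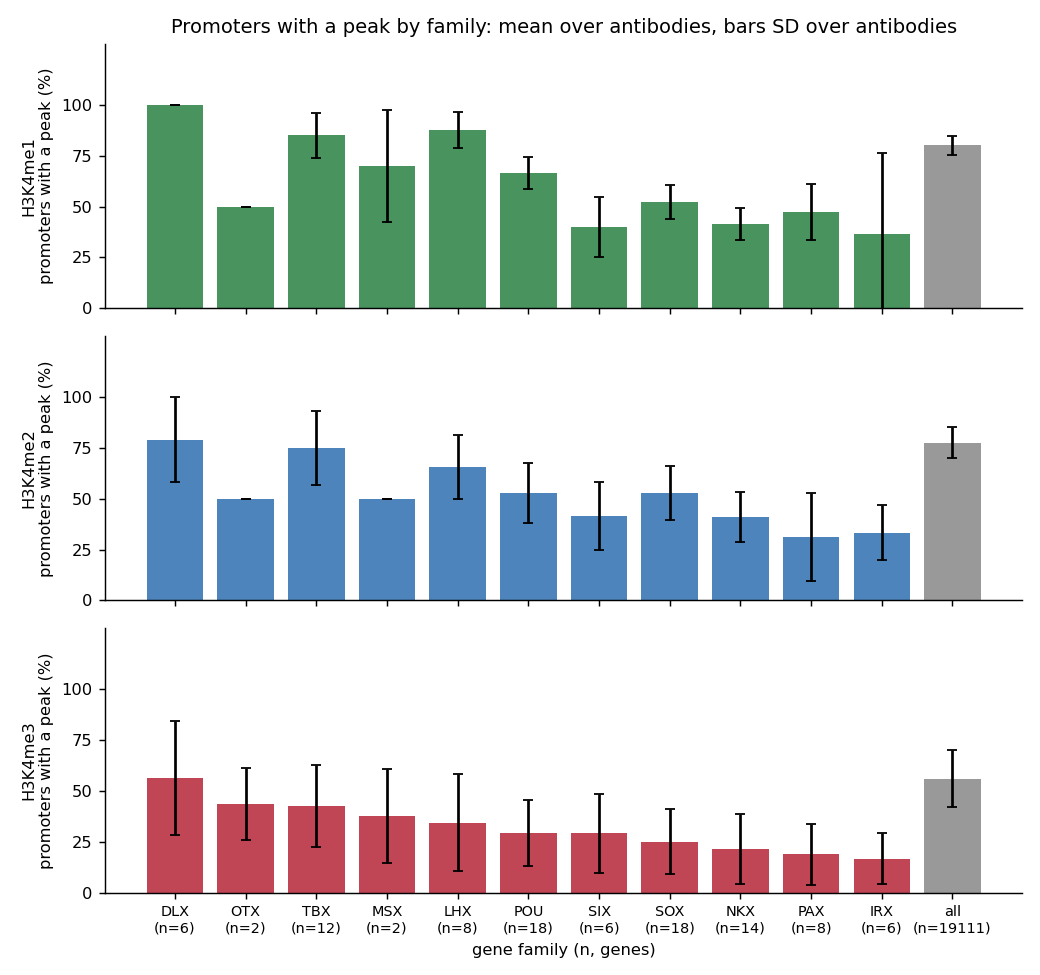
Percent of promoters with a peak (y axis) in each family and in all 19111 promoters (x axis, n is the number of genes), for H3K4me1, H3K4me2 and H3K4me3; bars are means and error bars SD over 5, 4 and 8 antibodies. Families are ordered by H3K4me3, from DLX (56.3%) to IRX (16.7%), beside 56.1% of all promoters.

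Among DLX genes, which lie in pairs, neighbours resembled each other in some pairs and not in others. DLX1 and DLX2, forebrain genes 17.393 kb apart on chromosome 2, had a peak in all 17 lists. At DLX1 (ENSG00000144355.15, start at 172085507) the H3K4me1 lists covered 89.7, 100, 87.1, 100 and 62.3% of the window, every H3K4me2 list covered 100%, and the H3K4me3 lists covered 84.5 to 100% with a median of 90.5%. The H3K4me1 and H3K4me3 values of DLX1 overlapped. At DLX2 (start at 172102900) the H3K4me1 lists covered 100, 100, 86.5, 100 and 74.2%, every H3K4me2 list covered 100%, and the H3K4me3 lists covered 69.9 to 100% with a median of 97.0%. H3K27me3 covered 100% of each window. DLX5 and DLX6, 19.278 kb apart on chromosome 7, each had H3K4me1 in 5 of 5, H3K4me2 in 2 of 4 and H3K4me3 in 2 of 8 lists. DLX4 and DLX3, 26.034 kb apart on chromosome 17, parted, with H3K4me3 in 5 of 8 lists at DLX4 and 2 of 8 at DLX3.

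Among TBX genes, TBX1 and TBX6 had a peak in all 17 lists, and TBX2 and TBX10 had none in H3K4me3. TBX1, a factor of the pharyngeal arches and outflow tract, starts at 19760778 on chromosome 22. Its H3K4me1 lists covered 72.4, 75.4, 65.5, 72.5 and 100% of the window and its H3K4me2 lists 100, 100, 100 and 88.4%. Its H3K4me3 lists covered 8.05 to 100% with a median of 51.8%, the widest spread of the 6 members with all 17 lists. TBX6, which acts in the presomitic mesoderm, had H3K4me3 over 49.2 to 100% of its window with a median of 67.0%, and H3K4me1 over 84.5 to 100%. TBX18 had H3K4me3 in 7 lists, TBX15 in 6 and TBX3 in 4. All 12 TBX promoters held H3K27me3.

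Among LHX genes, LHX6 had H3K4me3 in 7 of 8 lists and LHX4 in 6, while LHX2 and LHX8 had it in none. All 8 held H3K27me3. MSX1, a homeobox factor of tooth and face, had H3K4me1 in 5, H3K4me2 in 4 and H3K4me3 in 6 lists. Its relative MSX2 (start at 174724582 on chromosome 5) stood apart from it, with H3K4me1 covering 0, 100, 0, 4.70 and 0% of the window, and H3K4me2 and H3K4me3 at 0% in every list. The value of 100% came from Active Motif 39635, and H3K27me3 covered the whole MSX2 window.

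OTX1 and OTX2, homeobox factors of the anterior brain, also differed. OTX1 had H3K4me3 over 0 to 100% of its window with a median of 93.6%, while OTX2 had no peak in any of the 17 lists and no H3K27me3. PAX6, needed for the eye, had H3K4me1 in 5, H3K4me2 in 4 and H3K4me3 in 6 lists, against no peak in any of the 17 H3K4 lists at PAX1, PAX2 and PAX3. Of the SIX-family genes, SIX5 had H3K4me3 in 6 lists, and SIX6, an eye factor, had no H3K4 peak. IRX5 had H3K4me2 over 100% of its window in all 4 lists and H3K4me3 over 0 to 100% with a median of 95.2%. Its H3K4me1 lists covered 0, 37.7, 0, 0 and 21.4%. IRX2, IRX3 and IRX6 had no H3K4me3 in any list. Among NKX genes, NKX3-2 had H3K4me3 in 5 lists, and NKX2-2, NKX2-4 and NKX6-2 had no H3K4 peak.

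The POU family held 2 of the 6 members with all 17 lists. POU2F1, which encodes the widely expressed octamer-binding factor OCT1, starts at 167220886 on chromosome 1, and POU6F1 at 51218062 on chromosome 12. POU3F1 had H3K4me3 in 6 lists, and POU3F3, POU4F2, POU5F1B, POU1F1 and POU2AF2 in none. The coactivator genes POU2AF2, POU2AF3 and POU2AF1 lie side by side on chromosome 11, 52.821 and 80.729 kb apart. Each had H3K4me1 in 4 of 5 lists and H3K4me3 in at most 1 of 8. Of the 18 SOX genes, SOX12 had H3K4me3 in 7 lists, SOX18 in 6, and SOX4 and SOX5 in 5 each. SOX2, the pluripotency and neural factor, had it in 1 list, and SOX1, SOX9, SOX10, SOX11, SOX15 and SOX30 in none.

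**Figure D4:**
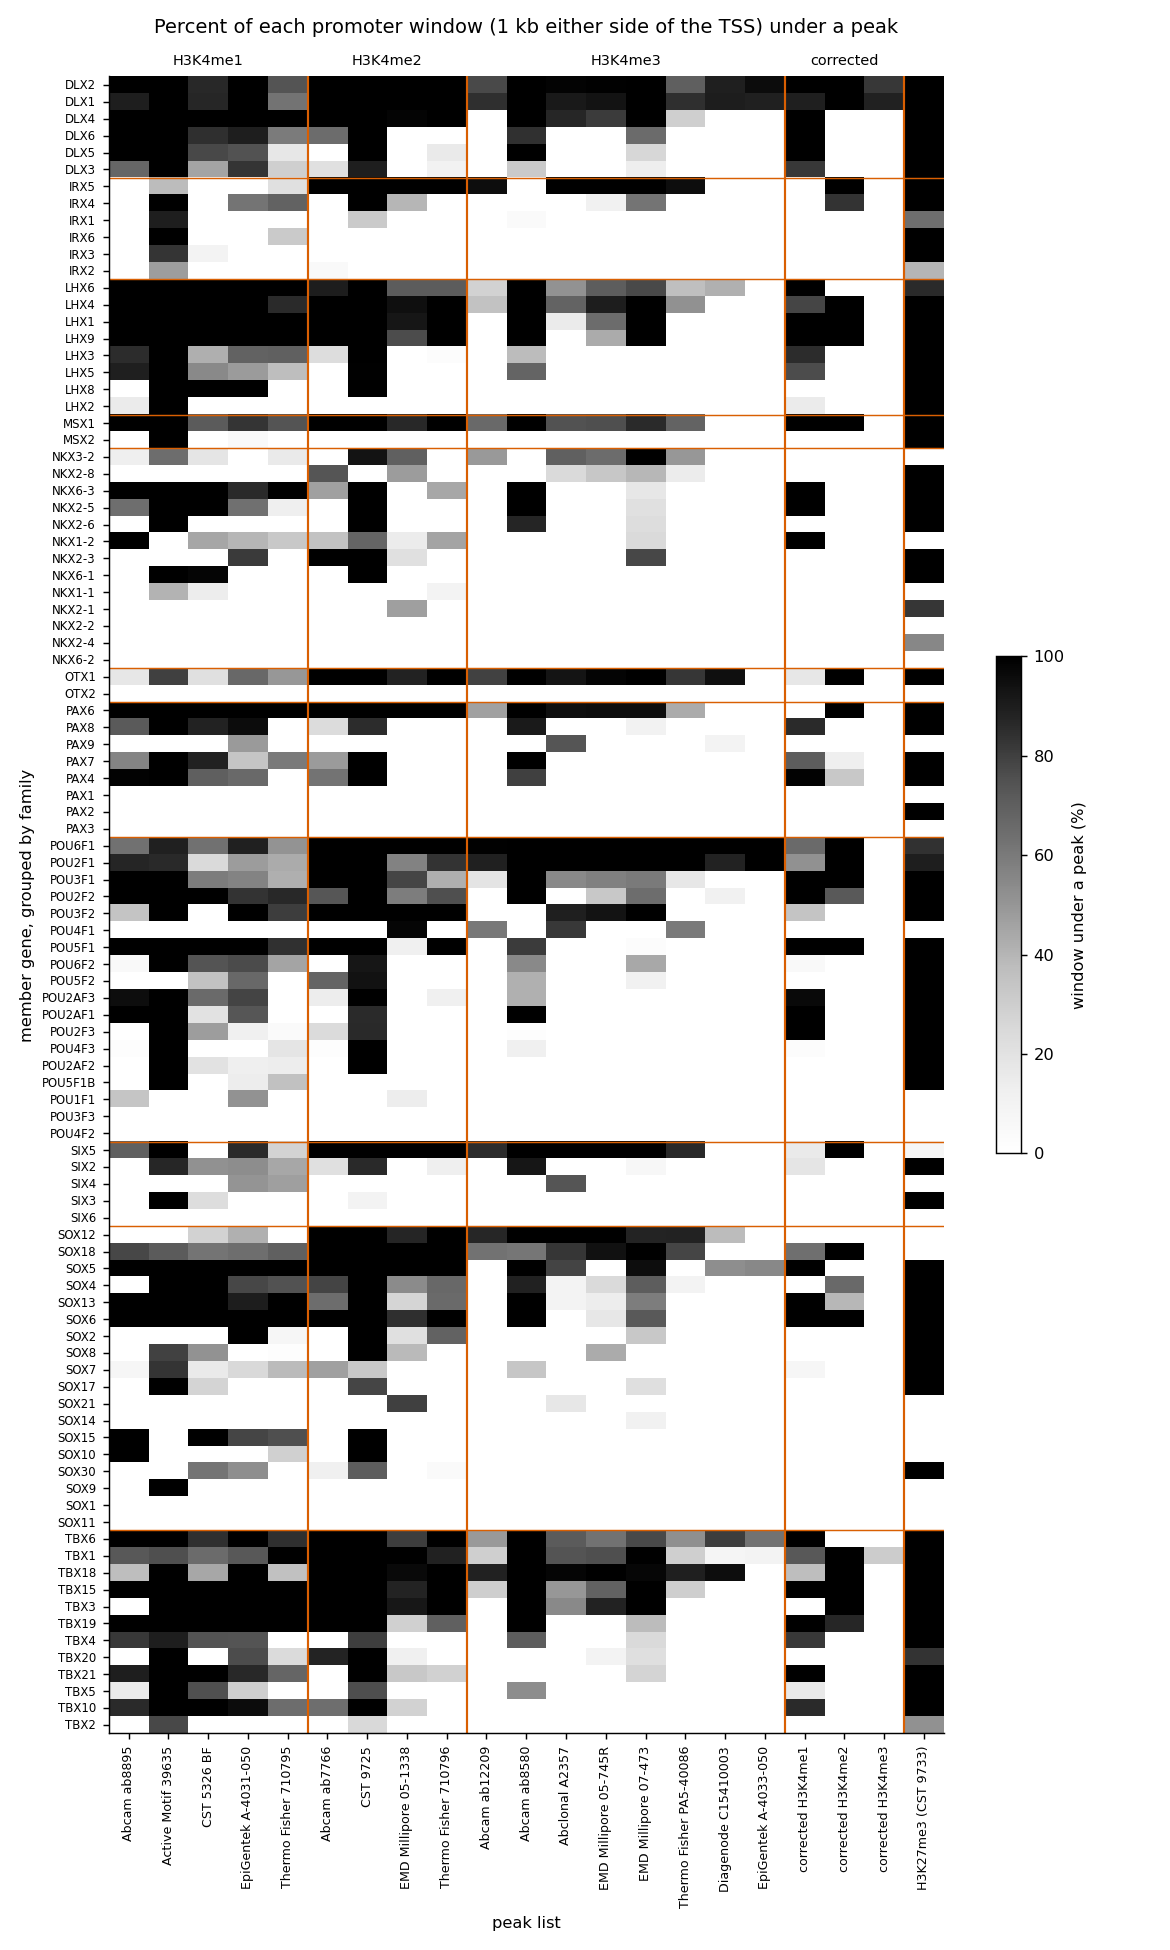
Percent of each 2001-base promoter window under a peak (grey scale, 0 to 100%) for 98 members (rows, grouped by family) in the 17 H3K4 lists, the 3 corrected lists and the H3K27me3 list (columns). DLX1, DLX2 and TBX1 are the only rows with a value in the corrected H3K4me3 column, and 12 rows are empty in all 17 H3K4 columns.

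To ask whether peaks of 1 degree of methylation covered more of a promoter than those of another, the covered share of the window was compared between antibody groups. An exact two-sided permutation test was run at each promoter, with Benjamini-Hochberg adjustment over all 19111. The test reads how far peaks extend and not how much methylation they hold. The H3K4me1 lists covered 710 to 1592 Mb of chromosomes 1 to 22, and the H3K4me3 lists 18.4 to 766 Mb. The difference is H3K4me1 minus H3K4me3 in percentage points of the window. Its median was 24.4 points over members and 9.08 over all promoters, and it was above 0 at 72 members, below 0 at 15 and 0 at 13. The smallest p that 5 against 8 antibodies can give is 0.000777, which becomes 0.00623 after adjustment. H3K4me1 covered more of the window than H3K4me3 at 27 members (exact permutation test, adjusted p under 0.05), or 27%, against 29.2% of all promoters. It covered less at 3 members, or 3%, against 13.1% of all promoters.

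The 27 were spread over 7 families: 5 of 12 TBX, 5 of 18 SOX, 5 of 18 POU, 4 of 8 LHX, 3 of 8 PAX, 3 of 14 NKX and 2 of 6 DLX genes. None of the IRX, MSX, OTX and SIX-family genes were among the 30. TBX10 (start at 67639763 on chromosome 11) had H3K4me1 over 85.7, 100, 100, 95.5 and 64.8% of its window and H3K4me3 at 0% in all 8 lists, and the groups did not overlap. Its mean was 89.2 ± 14.8% for H3K4me1 and 0% for H3K4me3, a difference of 89.2 points (exact permutation test, adjusted p = 0.00623, n = 5 and 8). POU5F1, which encodes the pluripotency factor OCT4, had H3K4me1 over 100, 100, 100, 100 and 84.2% and H3K4me3 over 0 to 81.2% with a median of 0%. The POU5F1 values did not overlap, and the means of 96.8 ± 7.06% for H3K4me1 and 10.4 ± 28.6% for H3K4me3 differed by 86.4 points (exact permutation test, adjusted p = 0.00623). TBX21, the T-bet gene of lymphocytes, had H3K4me1 over 67.5 to 100% and H3K4me3 over 0 to 27.3%, a difference of 85.4 points (adjusted p = 0.00623 by the same exact permutation test). LHX3, a pituitary and motor neuron factor, differed by 68.4 points at the same exact adjusted p.

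At the 3 members that went the other way, H3K4me1 peaks covered less of the window than H3K4me3 peaks. POU2F1 had H3K4me1 over 87.2, 86.3, 23.9, 47.8 and 43.0% of its window and H3K4me3 over 87.9 to 100% with a median of 100%. Its mean was 57.6 ± 28.0% for H3K4me1 and 97.1 ± 5.37% for H3K4me3, a difference of -39.5 points (exact permutation test, adjusted p = 0.00623). POU6F1 had H3K4me1 over 63.1, 89.1, 63.2, 89.1 and 51.0% and H3K4me3 over 99.5 to 100% with a median of 100%. Its difference was -28.9 points (exact permutation test, adjusted p = 0.00623), and the antibody groups did not overlap at POU6F1 or POU2F1. SOX12, a group C SOX factor (start at 325552 on chromosome 20), had H3K4me1 over 0, 0, 28.0, 41.6 and 0% and H3K4me3 over 0 to 100% with a median of 87.8%. Its groups overlapped, since EpiGentek A-4033-050 had no H3K4me3 peak there and Diagenode C15410003 covered 37.7%, below the highest H3K4me1 value, and the difference was -61.1 points (exact permutation test, adjusted p = 0.0342). The SOX12 call was lost when any of 9 of the 13 antibodies was left out (exact permutation test, adjusted p of 0.0561 to 0.0641). With a window of 2.5 kb either side the difference was 6.10 points at POU2F1 and 24.4 at POU6F1, so the sign turned at both and POU6F1 was called the other way (exact permutation test, adjusted p = 0.0201), and -38.6 at SOX12 (exact permutation test, adjusted p = 0.0882).

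The count of 30, against 42.3% of all promoters called in either direction, moved with the setting, and the share of all promoters called moved with it. It was 19 (13 higher, 6 lower) within the libraries run beside the first input, against 37.2% of all promoters, and 16 (13 higher, 3 lower) with peaks at or above the median value, against 26.3%. That median setting read only the antibody lists that hold a value per peak, so fewer antibodies entered as well. The count was 52, all higher, with a window of 2.5 kb either side, against 61.1%. It was 13 without Cell Signaling Technologies 5326 BF, against 25.3%, and 19 without Thermo Fisher PA5-40086, against 36.3%. Among libraries of 8 cycles, and with a peak scored only as present or absent, no promoter of the 19111 was called, with a smallest adjusted p of 0.0538 and 0.056 by the exact permutation test, so those settings say nothing about the members. Among the 8-cycle libraries the differences were 89.2 points at TBX10, 80.2 at POU5F1, -39.95 at POU2F1 and -28.9 at POU6F1. No member was called between H3K4me1 and H3K4me2 (exact permutation test, 0% of all promoters, smallest adjusted p 0.306). At an unadjusted p under 0.05 there were 8 members, against 14.6% of all promoters. No member was called between H3K4me2 and H3K4me3 (0% of all promoters, smallest adjusted p 0.134 by the exact permutation test). In that comparison 20 members had an unadjusted p under 0.05 by the exact permutation test, against 28.5% of all promoters. All 20 had more of the window under H3K4me2 peaks. That count of calls was 7 without Abcam ab8580, against 12.6% of all promoters, and 8 with the window of 2.5 kb, against 16.4%.

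In the authors' corrected lists few members held H3K4me3. A corrected H3K4me1 peak was present at 49 members, against 73.8% of all promoters, a corrected H3K4me2 peak at 28, against 57.3%, and a corrected H3K4me3 peak at 3, against 18.9%. The 3 were DLX1, DLX2 and TBX1. A corrected H3K4me3 peak was also rare at the erythroid markers, at 2 of 20, though 16 held H3K4me3 in at least 5 antibody lists. It was present at 8 of 24 Polycomb-related genes, a list of subunit genes that also holds the H3K27 demethylase gene KDM6B. The corrected lists are not independent of the antibody lists, since they were computed from the libraries of Abcam ab8895, ab7766, ab12209 and ab8580. The DLX1 peak spanned 2108 bases (chr2:172084169-172086276) with an authors' value of 45.1, above 96.7% of that list. The DLX2 peak spanned 1664 bases (chr2:172101885-172103548) with a value of 37.2, above 94.7%, and the TBX1 peak 1216 bases (chr22:19761163-19762378) with a value of 12.4, above 81.7%. No header gives the unit of this value, so it only ranks peaks within a list. POU2F1 and POU6F1 had H3K4me3 peaks in all 8 antibody lists and no corrected H3K4me3 peak. POU6F1 did have a corrected H3K4me2 peak whose value of 42.1 lay above 99.7% of its list, and SOX6 a corrected H3K4me1 peak whose value of 31.6 lay above 99.5%.

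H3K27me3 differed little in share from promoters in general. The list had a peak at 75 members, or 75%, against 73.2% of all promoters. It covered 1887 Mb, and its share of all promoters ran from 17.6% on chromosome 13 to 98.5% on chromosome 7, and no second H3K27me3 list was at hand. The part of this chromosome pattern in the members' values was not tested. All LHX, TBX, DLX, IRX and MSX genes held it, as did 14 of 18 POU, 9 of 14 NKX, 5 of 8 PAX, 9 of 18 SOX, 3 of 6 SIX-family and 1 of 2 OTX genes. The first 5 families have no member on chromosomes 13 and 14, where H3K27me3 was listed at 19.3% of all promoters. Those chromosomes hold 3 SIX-family, 2 NKX, 2 SOX, 1 PAX, 1 OTX and 1 POU gene. The widest H3K27me3 peak at a member had a median of 188459 bases, against 149777 at all promoters, and ranged from 21274 bases at NKX2-4 to 715551 at TBX3, a limb and mammary T-box factor.

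H3K4me3 and H3K27me3 met at 20 members, or 20%, against 41.2% of all promoters. Fewer members held H3K4me3 to begin with, 24% against 54.0% of all promoters. Among promoters with H3K4me3, H3K27me3 was listed at 20 of 24 members and at 7873 of 10317 promoters. The lower overlap thus does not show that H3K27me3 was rarer at members with H3K4me3. The 20 included DLX1, DLX2, DLX4, IRX5, LHX4, LHX6, MSX1, OTX1, PAX6, POU2F1, POU3F1, POU6F1, SIX5, SOX4, SOX5, TBX1, TBX6, TBX15 and TBX18. At SIX5 the H3K27me3 peak covered only 7.10% of the window. The 2 marks were also found together at 11 of 20 erythroid, 1 of 9 myeloid, 2 of 9 lymphoid and 1 of 8 neural markers. The same held for 16 of 24 Polycomb-related genes, 14 of 49 forkhead and 4 of 39 HOX genes. In this list the overlap was thus not particular to developmental genes. H3K4me3 without H3K27me3 was seen at 4 members, among them NKX3-2, SOX12 and SOX18, against 12.8% of all promoters. The 50 kb either side were 94.4% under H3K27me3 peaks at NKX3-2, 4.61% at SOX12 and 15.3% at SOX18. H3K27me3 without H3K4me3 was the commonest state, at 55 members, against 32.0% of all promoters. The other 21 members had neither, against 14.0% of all promoters. The count of 20 was 11 when a peak had to cover 50% of the window, against 35.0% of all promoters, and 7 with peaks at or above the median value, against 30.7%. The 7 came from only those H3K4me3 lists that hold a value per peak, and fewer than 5 lists were enough for a call. The count was 6 when all 8 H3K4me3 lists had to have a peak, against 27.2%, and 3 with the corrected H3K4me3 list, against 17.5%.

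Promoters of members were rich in CpG. With CpG-rich taken as a window over 55% GC and an observed to expected CpG ratio over 0.6, 67 of 100 members were CpG-rich, against 40.6% of all promoters. The median ratio was 0.718 in members and 0.640 in all promoters. CpG-rich promoters in general held H3K4me3 more often than the others, so base content was set beside the marks. Of the 67 CpG-rich members, 20, or 29.9%, held H3K4me3 in at least 5 lists, against 68.3% of all CpG-rich promoters. Of the 33 other members, 4, or 12.1%, did, against 44.2% of the other promoters. H3K4me1 was found at 53.1 ± 9.36% of CpG-rich members, against 82.6 ± 4.47% of all CpG-rich promoters (SD, n = 5 antibodies). At the other members it was found at 77.6 ± 10.8%, against 78.6 ± 4.88% of the other promoters, a gap within the spread between antibodies.

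**Figure D5:**
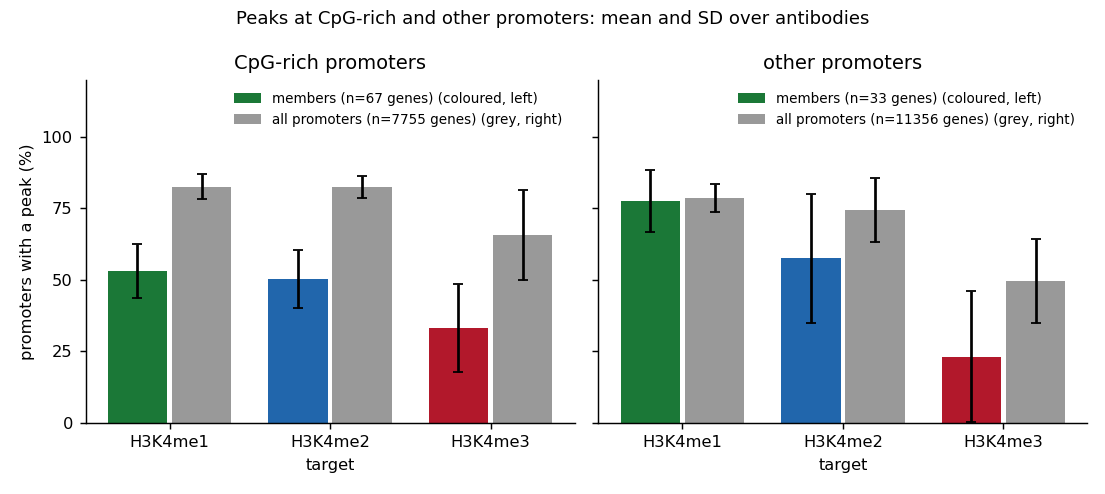
Percent of promoters with a peak (y axis) for H3K4me1, H3K4me2 and H3K4me3 (x axis), in CpG-rich and other promoters; coloured bars are members, grey bars all promoters, and error bars SD over 5, 4 and 8 antibodies. The H3K4me1 bars of members and of all promoters differ among CpG-rich promoters (53.1 and 82.6%) and lie within the antibody spread among the others (77.6 and 78.6%).

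The 12 members with no peak in any H3K4 list were NKX2-2, NKX2-4, NKX6-2, OTX2, PAX1, PAX2, PAX3, POU3F3, POU4F2, SIX6, SOX1 and SOX11. They include NKX2-2, a factor of ventral neural tube and pancreas, PAX3, of neural crest and muscle, and SOX1 and SOX11, of neural progenitors and neurons. Of the 12, 11 were CpG-rich, against 27.8% of the 1247 promoters without a peak. Over 50 kb either side of the start, the median covered by H3K4me1 was 2.70% at the 12, 1.12% at the 1247, 50.9% at all members and 71.5% at all promoters. The H3K27me3 list had a peak at 2 of the 12, NKX2-4 and PAX2, and at 280 of the 1247. NKX2-4, NKX2-2 and PAX1 follow each other on chromosome 20, 116.538 and 191.6 kb apart, so these 3 may share a region. With a window of 2.5 kb either side, 4 members and not 12 had no peak, against 4.68% of all promoters, so the higher share among members was not seen there.

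Chromosomes 13 and 14 stood apart for H3K4me1. The 10 members there had H3K4me1 at 6.00 ± 8.94%, H3K4me2 at 17.5 ± 22.2% and H3K4me3 at 20.0 ± 19.3% (SD over 5, 4 and 8 antibodies). Single libraries carried the first 2 means: EpiGentek A-4031-050 gave 2 of the 3 H3K4me1 peaks (2.5% without it), and EMD Millipore 05-1338 gave 5 of the 7 H3K4me2 peaks (6.67% without it). All 939 promoters of these chromosomes had 50.5 ± 25.4% for H3K4me1, 60.9 ± 9.35% for H3K4me2 and 43.2 ± 14.9% for H3K4me3. The H3K4me1 antibodies thus differed far more there than at all promoters of the other chromosomes, where the SD was 3.85 points. On the other chromosomes the 90 members had 67.3 ± 8.04%, 56.7 ± 15.5% and 31.0 ± 18.0%, against 81.8, 78.5 and 56.8% of all promoters. H3K27me3 was listed at 2 of the 10 members on chromosomes 13 and 14, against 19.3% of all promoters there, and at 73 of the 90 elsewhere, or 81.1%, against 76.0% of all promoters elsewhere. The 10 include NKX2-1, NKX2-8 and PAX9, 62.382 and 79.246 kb apart in that order, and also SIX6 and SIX4. The part of these chromosomes in the family values was not tested. All 30 called members lie on other chromosomes, so the unchanged count of 30 without chromosomes 13 and 14 says nothing about them.

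For 21 members the 5′ end of the gene lies over 1 kb from the start of the canonical transcript, and the choice of start changed what was read. SOX6 is the clearest case. At the canonical start (16356546 on chromosome 11) H3K4me1 covered 100% of the window in all 5 lists and H3K4me3 covered 0 to 100% with a median of 0%, a difference of 76.3 points (exact permutation test, adjusted p = 0.0261). Within the first input batch the SOX6 difference was 68.4 points and missed the threshold (exact permutation test, adjusted p = 0.064). At the 5′ end, 383045 bases upstream at 16739591, all 8 H3K4me3 lists had a peak, against 3 of 8 at the canonical start, and the difference was -22.01 points (exact permutation test, adjusted p = 0.0155). TBX15 went the other way, with 3 H3K4me3 lists at the 5′ end, against 6 at the canonical start. TBX1 had 8 of 8 H3K4me3 lists at both of its starts, and OTX2 no H3K4 peak at either.

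Other gene groups were read the same way. In the 39 HOX genes, the clustered homeobox factors, 91.3 ± 6.69% held H3K4me1, 71.8 ± 20.2% H3K4me2 and 36.9 ± 28.6% H3K4me3. H3K4me3 was present in at least 5 lists at 24 of 100 members, against 8 of 39 HOX genes, 17 of 49 forkhead genes, 3 of 5 GATA genes and 21 of 24 Polycomb-related genes. The forkhead genes, another large developmental family, had 58.0 ± 5.32% for H3K4me1 and 37.8 ± 15.5% for H3K4me3. No H3K4 peak was found at 12 of 100 members, against 0 of 39 HOX and 10 of 49 forkhead genes. These groups were set side by side as counts, and their differences were not tested.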

How the data were processed

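Peak lists of K562 chromatin were used as deposited. The submitters' processing notes list MACS2, Bowtie2, bedtools and SAMtools and hg38 (GRCh38) as the build. Their versions, the calling settings and what made a peak high-confidence were not given in the sources used here. The authors called each antibody by itself. In 17 of the 22 lists they deposited a signal value per peak whose unit no header gives, and 5 lists hold positions only. This value served only to rank or filter peaks inside their own list. The 3 corrected lists are the authors' own computation. Of 25 samples, 6 (inputs and mouse cells) are not analysed here.

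Genes and canonical starts came from GENCODE release 44. Peaks were merged within a list, and the window of 2001 bases around each start gave presence (1 base or more) and percent covered. Antibodies were grouped by target from the labels, and since no separate cultures are named, a p-value reflects how far antibodies differ and not how far cultures differ. Each promoter was compared by an exact permutation test over all regroupings, adjusted over 19111 promoters (python 3.11.15, numpy 2.4.6, pandas 2.3.3, figures with matplotlib 3.10.9), tested on simulated data. Read depth is unknown, so no counting interval was computed.

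The members, lists, tests and alternatives were chosen with earlier results of these data known. Values of 2 members counted above are not reported by name here. Otherwise every member could be named, and values were given for the member of each family with H3K4me3 in the most and the fewest lists, for members with at least 5 of 8 H3K4me3 lists, and for those lower in H3K4me1 than H3K4me3. TBX10, POU5F1, SOX6, TBX21 and LHX3 were named after their values were seen. Alternatives were windows of 0.5 and 2.5 kb, the 5′ end of the gene, peaks at or above the median value, presence alone, overlap of 50% of the window, other batches and each antibody left out; leaving out Abcam ab8580 and Active Motif 39635 together, and each antibody for the family and chromosome shares, was chosen after seeing the data.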

Additional observations from a re-analysis of the deposited data

Results flagged for a closer look

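In 66 groups of 4 to 8 lists, the highest or lowest antibody was set against the gap to its nearest neighbour, and 11 stood apart. Chance gives about 1 in 20 for values without ties. Many values here are tied or lie at 0 or 100%, so the 11 cannot be read against that rate. Among families, 66.7% of SIX-family promoters had an H3K4me2 peak with Cell Signaling Technologies 9725, above the other H3K4me2 lists. Of the OTX promoters, 0% had an H3K4me3 peak with EpiGentek A-4033-050, below the other 7 lists. At TBX1, Thermo Fisher 710795 covered 100% of the window for H3K4me1, the highest of 5, and Thermo Fisher 710796 covered 88.4% for H3K4me2, the lowest of 4. At POU6F1, Abcam ab12209 covered 99.5% for H3K4me3, the lowest of 8. EMD Millipore 05-1338, the H3K4me2 library of 12 cycles, was the lowest of 4 at SOX12 (87.5%), POU5F1 (11.8%) and SOX6 (84.6%). At POU5F1, Thermo Fisher 710795 covered 84.2% for H3K4me1, the lowest of 5, and Abcam ab8580 covered 81.2% for H3K4me3, the highest of 8. At MSX2, Active Motif 39635 covered 100% for H3K4me1, the highest of 5. Where the other lists of a group all read 0 or 100%, any other value stands apart.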

How the results depend on the processing

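Members called between H3K4me1 and H3K4me3 numbered 30 (42.3% of all promoters), and 52 (61.1%) with a window of 2.5 kb, 16 (26.3%) with peaks at or above the median value, 19 (37.2%) within the first input batch, and 13 to 40 (25.3 to 45.8%) with an antibody left out. Here and below, the median-value setting read only the lists that hold a value per peak, so fewer antibodies entered. The count was 0 by presence alone and 0 with 8 cycles, where 0% of all promoters were called, and these settings say nothing about stability. The 0 calls between H3K4me2 and H3K4me3 became 8 (16.4%) with 2.5 kb and 7 (12.6%) without Abcam ab8580, and stayed 0 with any other antibody left out. Leaving out Active Motif 39635 as well could not change that count, since it is an H3K4me1 antibody. The cause was not tested. The share of members with H3K4me1 (61.2%) was 73.0% with 2.5 kb, 53.4% with peaks at or above the median value and 47.8% when 50% of the window had to be covered, and 58.75 to 63.5% with an antibody left out. The 20 members with H3K4me3 and H3K27me3 were 7 (30.7% of all promoters) with peaks at or above the median value, 11 (35.0%) at 50% of the window, 6 (27.2%) with all 8 lists and 3 (17.5%) with the corrected list. For the 7, fewer than 5 lists were enough for a call. The 12 members without a peak were 4 with 2.5 kb (4.68% of all promoters), and the 3 with corrected H3K4me3 were 9 (22.5%). With 2.5 kb the sign turned at DLX1 (39.7 points, exact permutation adjusted p = 0.0225), POU2F1 (6.10) and POU6F1 (24.4, exact permutation adjusted p = 0.0201), calls were gained at DLX2 (47.5, exact permutation adjusted p = 0.0101), TBX1 (50.3, 0.0101) and MSX2 (30.1, 0.0163), and the SOX12 difference was -38.6 points (exact permutation adjusted p = 0.0882). At the 5′ end of the gene SOX6 turned to -22.01 and TBX1 was called (54.2, exact permutation adjusted p = 0.0477). POU2F1, POU6F1, TBX10, POU5F1 and SOX6 stayed called with each antibody left out, and DLX1 and DLX2 were never called there. No paired analysis was possible because the labels give antibodies of different targets no shared replicate numbers. Depth is unknown, so a missing peak cannot be told apart from a shallow library.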
